A study of Homo sapiens with 8 samples.

Results

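The genes described here encode the enzymes that cut the extracellular matrix and the proteins that restrain or localise them: 22 matrix metalloproteinases, 4 tissue inhibitors of metalloproteinases (TIMPs), the membrane-anchored inhibitor RECK and 6 genes of the plasminogen system, 33 in all. Members were found by name: a row of the deposited table counted where the array annotation gave that gene as its only symbol, and the row with the highest mean over the 8 samples would stand for a gene with several. This gave 1 row each for 31 of the 33 genes, out of 33616 genes with such a row. TIMP2 shares its row with another symbol and no row carried SERPINB2 alone, so neither was analysed here.

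RNA came from LN229, an established human glioblastoma cell line, in 4 samples titled 23 Pa CSS and 4 samples titled no CSS, where CSS is compressive solid stress applied for 18 h. Cells of both groups grew on a porous polyester membrane. Steel discs on an agar cushion pressed on the stressed cells, while controls were left without either, so that the effects of cushion and pressure cannot be told apart. The labels contradict each other: every sample titled 23 Pa CSS is described elsewhere in its own record as uncompressed, and every sample titled no CSS as compressed. Groups follow the titles. Each difference was taken on the log2 scale as the mean under the title 23 Pa CSS minus the mean under the title no CSS, and every sign turns if the other labels are right. Nothing states that the samples of a group were separate cultures, so p-values reflect the spread among these samples alone, which may be technical. In such bulk RNA a change within each cell cannot be told apart from a change in the share of cells that express a gene.

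Matrix metalloproteinases are zinc-dependent enzymes made as inactive precursors. Some are secreted and some are anchored in the plasma membrane, where they cut matrix at the cell edge and activate secreted family members, and TIMPs block them by occupying the active site. In the plasminogen system, the activators PLAU (urokinase) and PLAT (tissue plasminogen activator) turn plasminogen into plasmin, a broad protease that also activates several metalloproteinases. PLAUR holds urokinase at the cell surface, and serpins inactivate the activators. In glioblastoma both systems are known for their part in invasion of brain tissue.

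Of the 31 measured genes, 9 lay above background, defined as a signal over the 95th percentile of the 23 antigenomic control rows of the same array in all 8 samples. That percentile lay between 8.10 and 8.52 in the samples titled 23 Pa CSS and between 7.78 and 8.61 in those titled no CSS. The 9 were the metalloproteinases MMP2, MMP14 and MMP16, the inhibitors TIMP1, TIMP3 and RECK, the urokinase receptor PLAUR, the activator PLAT and the serpin SERPINE2. The other 22 ranged from 3.04 to 7.58 and lay in the range of the antigenomic rows in every sample, so that a change in their RNA may not be visible. For scale, the mean of the antigenomic rows was 4.18 under the title 23 Pa CSS and 4.03 under the title no CSS, and 10 of the 22 exceeded it in all 8 samples.

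Among the 31 genes 1 rose and 0 fell in the samples titled 23 Pa CSS (limma, adjusted p under 0.05 over all transcript clusters), and 30 did not pass. The single call is 3.23% of the measured members. Of all 33616 genes 1.36% rose and 0.97% fell, 2.33% together. Of the 8569 genes whose mean signal lay above the antigenomic percentile 6.55% were called, beside 1 of the 9 such members. A count of 1 does not set these genes apart. At an unadjusted p under 0.05, 5 members were higher and 1 was lower, where 19.3% of all genes had such a p. The groups did not overlap for 6 of the 31, beside 13.7% of all genes. All 6 are among the 9 members above background, beside 30.4% of all genes above the antigenomic percentile. Whether these shares differ was not tested. The median difference of the 31 was 0.27, beside 0.09 over all genes. Of the 31 differences 22 were positive and 9 negative, but after centring on hybridisation controls, which lowered the median of all transcript clusters by 0.31, 13 were positive and 18 negative.

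**Figure D1:**
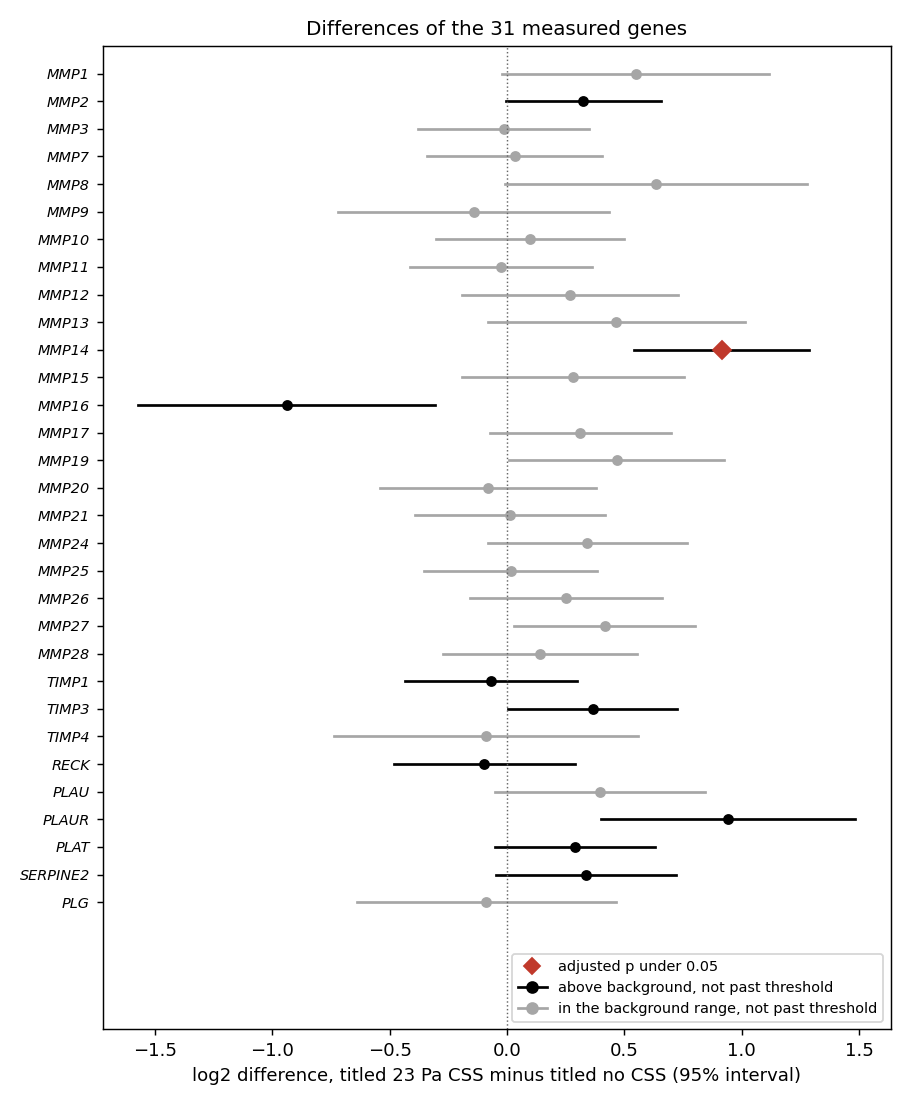
Log2 difference (titled 23 Pa CSS minus titled no CSS, x axis) of each of the 31 measured genes (y axis), with its 95% interval from limma, n = 4 per group. MMP14 (diamond) is the only call, at 0.91, with PLAUR at 0.94 and MMP16 at −0.94 the widest apart of the other genes above background (black), and the 22 genes in the background range (grey) lie between −0.14 and 0.63.

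MMP14, the membrane-anchored metalloproteinase that cuts collagen and activates the MMP2 precursor at the cell surface, was the member that rose. Its log2 signal (transcript cluster TC1400006659.hg.1) was 11.20, 10.93, 11.19 and 11.01 in the samples titled 23 Pa CSS, and 10.34, 10.17, 10.30 and 9.87 in those titled no CSS. Every sample titled 23 Pa CSS exceeded every sample titled no CSS. The means were 11.08 ± 0.135 in the samples titled 23 Pa CSS and 10.17 ± 0.215 in those titled no CSS (SD, n = 4 each). The difference of 0.91 (95% interval 0.54 to 1.29) is 1.88-fold, with a limma adjusted p of 0.0257 and an exact two-sided permutation p of 0.0286, the smallest that 4 against 4 samples allow. The call lay close to the threshold. It was lost on arrays centred on hybridisation controls (0.60, adjusted p = 0.0752) and without any 1 of 5 samples, namely titled 23 Pa CSS replicate 1 or 4 and titled no CSS replicate 2, 3 or 4, where the difference was 0.81 to 0.96 and the adjusted p at most 0.0797.

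The stretch before the MMP14 start is shown because MMP14 is the only called gene. It is RefSeq's (GRCh38.p14, chr14:22836335-22836584, plus strand, the 250 bases before the start, 5′ to 3′), and capitals mark a hypoxia-response core on the reverse strand (CACGT) and a GC box (GGGCGG), 96 and 66 bases before the start.
MMP14: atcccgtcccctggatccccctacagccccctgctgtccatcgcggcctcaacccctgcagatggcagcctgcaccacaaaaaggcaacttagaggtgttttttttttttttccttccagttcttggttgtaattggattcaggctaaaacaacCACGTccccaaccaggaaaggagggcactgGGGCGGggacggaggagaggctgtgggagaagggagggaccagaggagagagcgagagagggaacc

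**Figure D2:**
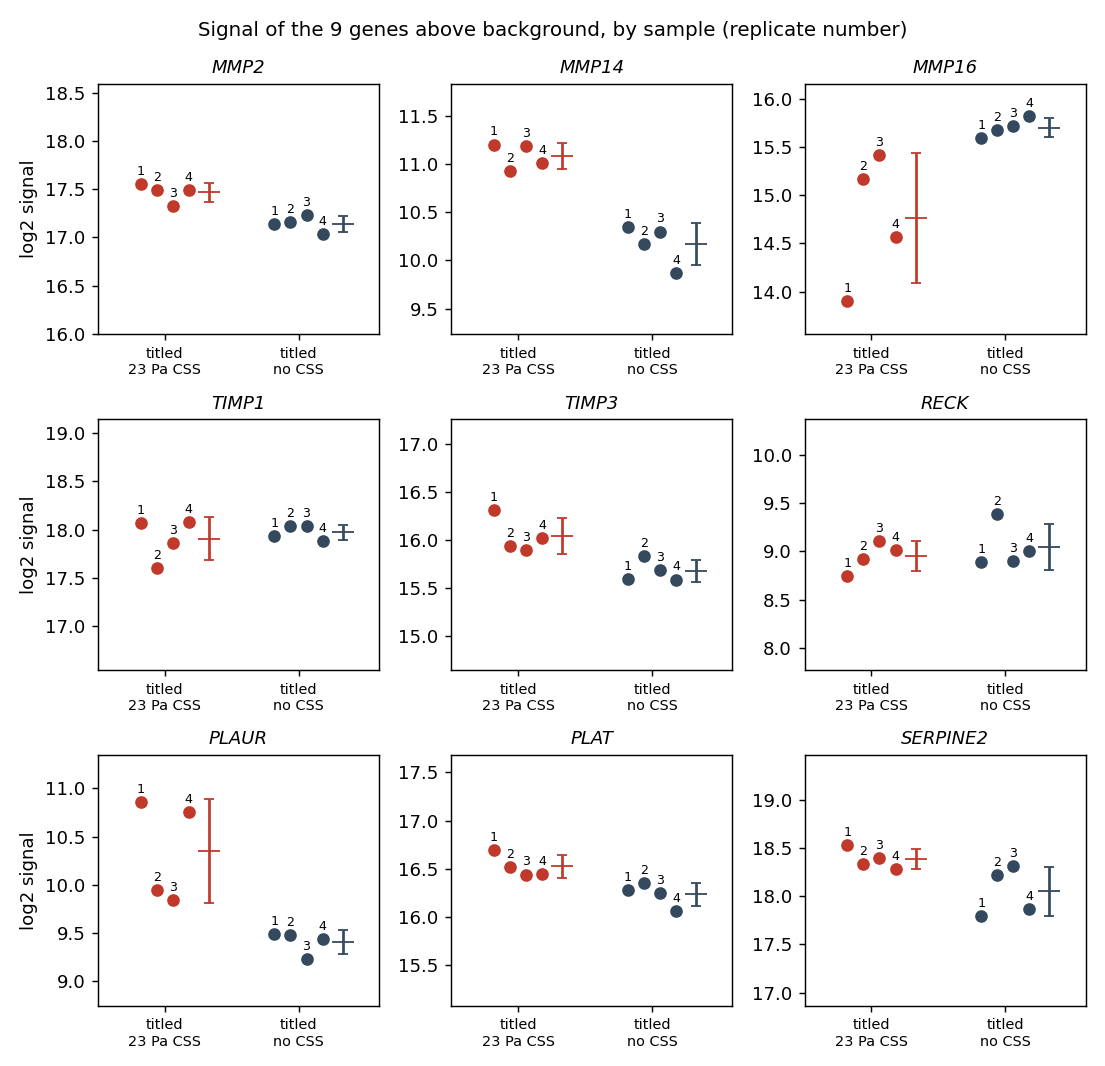
Log2 signal (y axis, the same span in every panel) of the 9 genes above background in each sample titled 23 Pa CSS (red) and titled no CSS (blue), with replicate numbers beside the points and the mean ± SD to their right. MMP14 and PLAUR are higher in all 4 samples titled 23 Pa CSS, MMP16 is lower in all 4, and TIMP1 and RECK overlap.

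None of the other membrane-type enzymes passed. MMP16, the only other membrane-type enzyme above background, had signals of 13.90, 15.17, 15.42 and 14.56 in the samples titled 23 Pa CSS and 15.59, 15.67, 15.72 and 15.82 in those titled no CSS. All 4 samples titled 23 Pa CSS were lower, but by very unequal amounts: the SD was 0.678 there and 0.096 in the samples titled no CSS. The difference was −0.94 (95% interval −1.57 to −0.31) and did not pass (limma adjusted p = 0.125, exact permutation p = 0.0286). It was −0.65 without titled 23 Pa CSS replicate 1 (adjusted p = 0.220), the lowest sample, and −1.16 without titled 23 Pa CSS replicate 3, where it passed (adjusted p = 0.0423). It also passed on arrays centred on hybridisation controls (−1.25, adjusted p = 0.0387) and when only rows above background were tested (adjusted p = 0.0433). MMP15, MMP17, MMP24 and MMP25 lay in the background range. MMP15 was 7.17 ± 0.371 in the samples titled 23 Pa CSS and 6.89 ± 0.242 in those titled no CSS (SD, n = 4, difference 0.28, limma adjusted p = 0.589). MMP17 was 7.10 ± 0.259 in the samples titled 23 Pa CSS and 6.78 ± 0.113 in those titled no CSS (SD, n = 4, difference 0.31, limma adjusted p = 0.43). MMP24, a membrane-type enzyme of nervous tissue, differed by 0.34 and MMP25, which is anchored by a lipid tail, by 0.02 (limma adjusted p = 0.432 and 0.98).

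MMP2, the gelatinase that MMP14 activates, was 17.55, 17.49, 17.32 and 17.49 in the samples titled 23 Pa CSS and 17.14, 17.16, 17.23 and 17.04 in those titled no CSS. The groups did not overlap, yet the shift was small. The difference of 0.32 (95% interval −0.01 to 0.65) did not pass (limma adjusted p = 0.322), and was 0.01 after centring on hybridisation controls. MMP9, the other gelatinase, stayed in the background range at 4.95 ± 0.47 in the samples titled 23 Pa CSS and 5.09 ± 0.379 in those titled no CSS (SD, n = 4, limma adjusted p = 0.856).

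None of the 3 collagenases was above background. MMP1, the interstitial collagenase, was 6.50, 5.71, 5.45 and 5.31 in the samples titled 23 Pa CSS and 4.82, 5.41, 5.31 and 5.24 in those titled no CSS, so that the groups overlapped and titled 23 Pa CSS replicate 1 stood highest. MMP8, the neutrophil collagenase, and MMP13 differed by 0.63 and 0.47, and MMP1 by 0.55 (limma adjusted p from 0.32 to 0.403). The stromelysins MMP3, MMP10 and MMP11 differed by −0.03 to 0.10 and the matrilysins MMP7 and MMP26 by 0.03 and 0.25. Of the remaining 6 metalloproteinases, MMP27 and MMP19 had an unadjusted p under 0.05. MMP27 was 4.34 ± 0.195 in the samples titled 23 Pa CSS and 3.92 ± 0.201 in those titled no CSS (SD, n = 4, difference 0.42, limma adjusted p = 0.27). MMP19 was 4.20 ± 0.236 in the samples titled 23 Pa CSS and 3.73 ± 0.345 in those titled no CSS (SD, n = 4, difference 0.47, limma adjusted p = 0.299). Both sit near the mean of the antigenomic rows, which was itself 0.14 higher in the samples titled 23 Pa CSS, and the part of that background in the 2 differences was not tested. MMP12, the macrophage elastase, MMP20, the enamel enzyme, MMP21 and MMP28 differed by −0.08 to 0.27.

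Position on the genome was not used to choose the members. In the GRCh38.p14 gene table, MMP7, MMP20, MMP27, MMP8, MMP10, MMP1, MMP3, MMP12 and MMP13 follow each other on chromosome 11 with no other protein-coding gene between them. All 9 lay in the background range in these cells and 0 passed in limma (1, MMP27, had an unadjusted p under 0.05). The metalloproteinases above background all lie outside this run.

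Among the inhibitors, TIMP1 and TIMP3 were far above background and neither passed. TIMP3, which binds to the matrix and also inhibits ADAM proteases, was 16.31, 15.94, 15.89 and 16.03 in the samples titled 23 Pa CSS and 15.59, 15.83, 15.69 and 15.59 in those titled no CSS. The groups did not overlap, by a gap smaller than the SD of either. The difference was 0.37 (95% interval 0.01 to 0.73, limma adjusted p = 0.301), and 0.06 on arrays centred on hybridisation controls. TIMP1, a secreted inhibitor that acts poorly on membrane-type enzymes, was 18.06, 17.60, 17.87 and 18.08 in the samples titled 23 Pa CSS and 17.93, 18.04, 18.03 and 17.89 in those titled no CSS. These groups overlapped, with titled 23 Pa CSS replicate 2 the lowest of the 8, and the difference was −0.07 (95% interval −0.43 to 0.30, limma adjusted p = 0.895). Without that sample it was 0.03. RECK, a lipid-anchored inhibitor of MMP2, MMP9 and MMP14, was 8.95 ± 0.155 in the samples titled 23 Pa CSS and 9.05 ± 0.234 in those titled no CSS (SD, n = 4). Its difference of −0.10 (95% interval −0.48 to 0.29, limma adjusted p = 0.853) was 0.05 under quantile normalization. TIMP4 lay in the background range, at 4.56 ± 0.277 in the samples titled 23 Pa CSS and 4.64 ± 0.649 in those titled no CSS (limma adjusted p = 0.927).

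In the plasminogen system PLAUR had the largest positive difference of the 31 genes, yet it did not pass. The receptor's signal was 10.86, 9.94, 9.84 and 10.76 in the samples titled 23 Pa CSS and 9.49, 9.48, 9.23 and 9.44 in those titled no CSS. The groups did not overlap, and the samples titled 23 Pa CSS formed a higher pair, replicates 1 and 4, and a lower pair, replicates 2 and 3. The means were 10.35 ± 0.535 in the samples titled 23 Pa CSS and 9.41 ± 0.124 in those titled no CSS (SD, n = 4 each), a difference of 0.94 (95% interval 0.40 to 1.48) with a limma adjusted p of 0.0773 and an exact permutation p of 0.0286. It passed without titled 23 Pa CSS replicate 3 (1.11, adjusted p = 0.0307) and when only rows above background were tested (0.94, adjusted p = 0.0239), where MMP14 passed too. The lowest estimate, 0.63, came on arrays centred on hybridisation controls.

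MMP16 had the reverse order of replicates, with 1 and 4 lowest where PLAUR was highest. Its values of 13.90, 14.56, 15.17 and 15.42 (replicates 1, 4, 2 and 3) were graded and formed no clear pairs. The same order appeared across the table. Over the 14768 transcript clusters above background, the first principal component of deviations within the samples titled 23 Pa CSS held 55.1% of their variance. Its scores were 0.35 and 0.09 for replicates 1 and 4 and −0.19 and −0.26 for replicates 2 and 3, again graded. Scores of deviations from a group mean must take both signs, and 4 samples leave few components to share the variance. The part of this table-wide spread in the values of PLAUR and MMP16 was not tested. MMP14 did not follow it, since replicates 1 and 3 were its 2 highest samples in that group. A first component of like size, 53.5% of the variance, appeared within the samples titled no CSS.

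**Figure D3:**
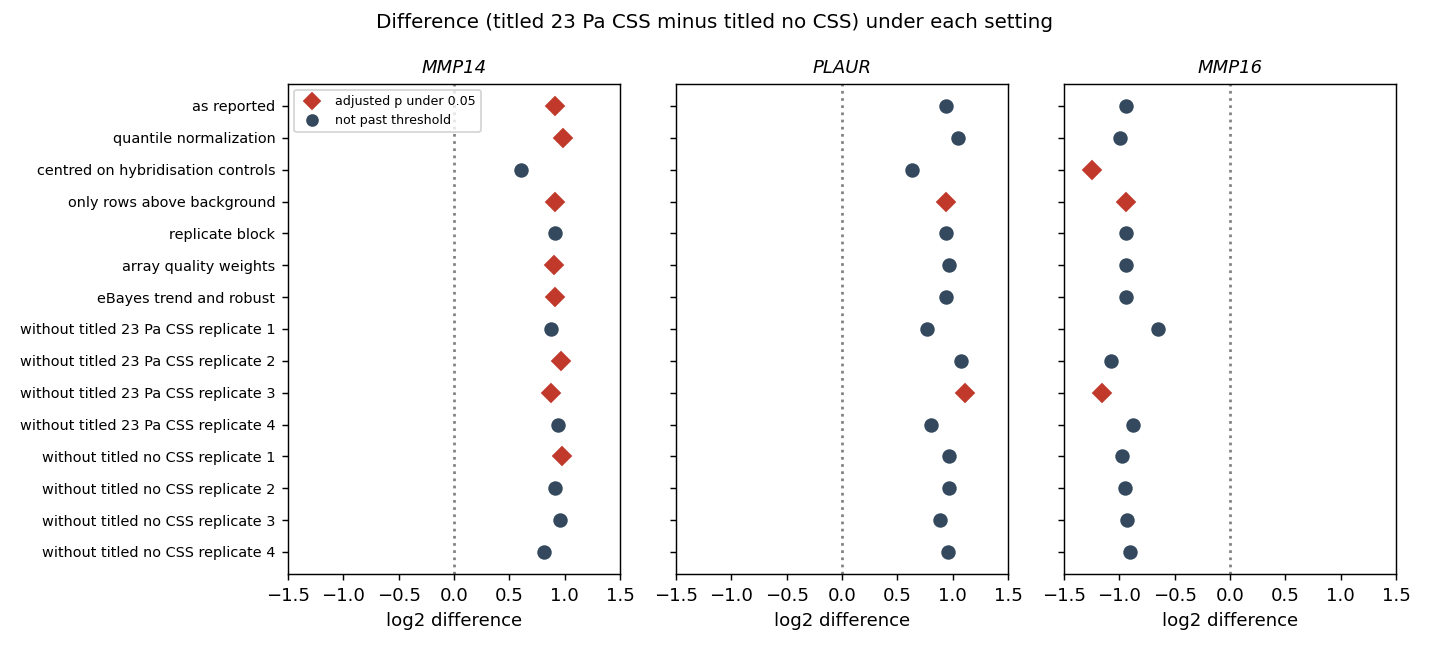
Log2 difference (titled 23 Pa CSS minus titled no CSS, x axis) of MMP14, PLAUR and MMP16 as reported and under each of 14 other settings (y axis); red diamonds have a limma adjusted p under 0.05. No setting turns the sign of any of the 3, MMP14 passes in 7 of the 14, PLAUR in 2 and MMP16 in 3.

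PLAUR is shown as the member with the largest positive difference, with RefSeq's 250 bases before its start (GRCh38.p14, chr19:43670170-43670419, minus strand, 5′ to 3′). Capitals mark an AP-1 site (TGAGTCA) 186 bases before the start and a hypoxia-response core (CACGC) 86 bases before it.
PLAUR: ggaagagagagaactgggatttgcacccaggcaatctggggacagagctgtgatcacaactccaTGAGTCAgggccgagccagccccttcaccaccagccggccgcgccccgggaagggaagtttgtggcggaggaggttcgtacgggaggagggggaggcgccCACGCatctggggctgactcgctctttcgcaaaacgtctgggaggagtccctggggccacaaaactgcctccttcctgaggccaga

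Neither plasminogen activator passed. PLAU, which encodes the ligand of PLAUR, lay in the background range at 6.04 ± 0.35 in the samples titled 23 Pa CSS and 5.64 ± 0.191 in those titled no CSS, and the groups overlapped (SD, n = 4, difference 0.40, limma adjusted p = 0.38). PLAT was far above background, with signals of 16.69, 16.52, 16.44 and 16.45 in the samples titled 23 Pa CSS and 16.28, 16.35, 16.25 and 16.06 in those titled no CSS. Its groups did not overlap, but the difference was 0.29 (95% interval −0.05 to 0.63, limma adjusted p = 0.405), and −0.02 on arrays centred on hybridisation controls. SERPINE2, protease nexin-1, which inhibits thrombin and both plasminogen activators, was 18.53, 18.34, 18.39 and 18.28 in the samples titled 23 Pa CSS and 17.80, 18.23, 18.31 and 17.87 in those titled no CSS. These groups overlapped by 1 sample of each, and the difference was 0.34 (95% interval −0.05 to 0.72, limma adjusted p = 0.387). PLG, plasminogen itself, is made chiefly by the liver and stayed in the background range, at 4.30 ± 0.374 in the samples titled 23 Pa CSS and 4.38 ± 0.427 in those titled no CSS (SD, n = 4, limma adjusted p = 0.914).

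Other genes of the same pathways were examined by list. Of 15 measured genes that encode further inhibitors, receptors and cofactors of the plasminogen system, 2 rose, 0 fell and 13 did not pass. The 2 calls are 13.3% of the list, beside 2.33% of all genes and 6.55% of those above the antigenomic percentile. S100A10, the annexin A2 partner that binds plasminogen at the cell surface, was 17.62 ± 0.181 in the samples titled 23 Pa CSS and 16.45 ± 0.115 in those titled no CSS (SD, n = 4, difference 1.17, limma adjusted p = 0.011). VLDLR, a lipoprotein receptor that can clear complexes of urokinase with its inhibitors, was 8.83 ± 0.482 in the samples titled 23 Pa CSS and 7.43 ± 0.225 in those titled no CSS, where it lay in the background range. Against the antigenomic percentile there it was at least 1.47-fold higher (measured difference 1.40, limma adjusted p = 0.0201). It lost its call without titled 23 Pa CSS replicate 4, with a difference of 1.24, and without titled no CSS replicate 2 or 4, with differences of 1.41 and 1.29 (adjusted p of at most 0.0705). LRP1 and ENO1 were named after their values were seen. LRP1 had the smallest p-value of the 13 that did not pass (difference 0.90, limma adjusted p = 0.0779). ENO1, enolase, a plasminogen receptor when at the cell surface, has 2 transcript clusters. The brighter, counted here, differed by 0.60 (limma adjusted p = 0.0922). The dimmer differed by 1.99, which passed (adjusted p = 0.0444), as did the mean of both (1.29, adjusted p = 0.0407). The brighter alone also passed when only rows above background were tested (adjusted p = 0.0166) and with a trended robust prior, and differed by 0.29 on arrays centred on hybridisation controls. S100A10 and VLDLR were known to rise when the list was made, so their count carries no independent weight. The median of this list was 0.22, beside 0.09 over all genes.

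Of 16 activators, cofactors and cathepsins, 0 passed in limma, while 7 were higher and 2 lower at an unadjusted p under 0.05, which 19.3% of all genes had, with a median difference of 0.25. The smallest p-values belonged to BSG, FURIN and CAV1. BSG (basigin, known for inducing metalloproteinases in neighbouring cells) was 16.32 ± 0.202 in the samples titled 23 Pa CSS and 15.56 ± 0.24 in those titled no CSS (SD, n = 4, difference 0.76, limma adjusted p = 0.0598). FURIN, the convertase that removes the propeptide of membrane-type metalloproteinases, was 11.07 ± 0.258 in the samples titled 23 Pa CSS and 10.32 ± 0.214 in those titled no CSS (difference 0.75, limma adjusted p = 0.0677). CAV1, the caveolar coat protein, differed by 0.68 (limma adjusted p = 0.0736). The groups did not overlap for 6 of the 16 genes, beside 13.7% of all genes and 30.4% of those above the antigenomic percentile. BSG, FURIN and CAV1 were among the 6. All 3 passed when only rows above background were tested (adjusted p = 0.0136 for BSG, 0.0160 for FURIN and 0.0150 for CAV1) and with a trended robust prior, FURIN also passed under quantile normalization and BSG without titled 23 Pa CSS replicate 3. On arrays centred on hybridisation controls their differences were only 0.45, 0.44 and 0.36. Of 26 measured genes of the related ADAM and ADAMTS families 0 passed in limma, and 3 were higher and 3 lower at an unadjusted p under 0.05, a share near that of all genes. The median difference was 0.10. ADAM22, a neuronal member without protease activity, differed by −0.73 (limma adjusted p = 0.079). The sheddases ADAM15 and ADAM19 differed by 0.66 and 0.50 (limma adjusted p = 0.0987 and 0.194). ADAM19 exceeded the antigenomic percentile in only 1 sample of each group. When only rows above background were tested, ADAM22 and ADAM15 passed (limma adjusted p = 0.0189 and 0.0224). Centred on hybridisation controls, ADAM22 passed (−1.04, limma adjusted p = 0.0180) and ADAM15 did not (0.35). ADAM22 also passed without titled 23 Pa CSS replicate 3 (limma adjusted p = 0.0392).

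**Figure D4:**
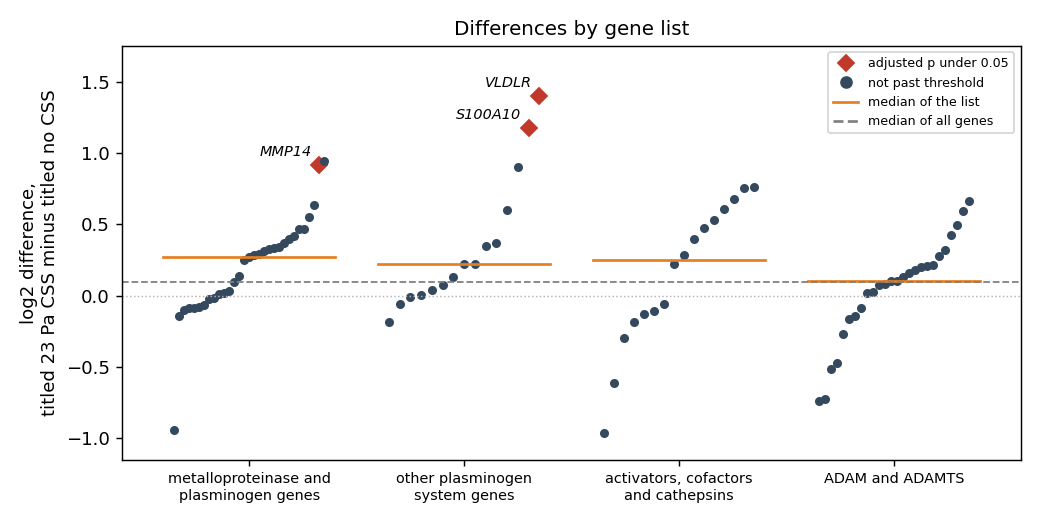
Log2 difference (titled 23 Pa CSS minus titled no CSS, y axis) of each measured gene in 4 lists (x axis), sorted within each list, with the median of each list (orange) and of all genes (dashed grey, 0.09). Calls (red diamonds) are MMP14, S100A10 and VLDLR, and the medians of the lists lie between 0.10 and 0.27.

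Promoter sequence was found for 20 of the 33 genes, and TIMP3 is added here as an inhibitor with an unadjusted p under 0.05 (RefSeq, GRCh38.p14, chr22:32801455-32801704, plus strand, 250 bases before the start, 5′ to 3′). Capitals mark 5 GC boxes (GGGCGG or CCGCCC) and a hypoxia-response core (GCGTG).
TIMP3: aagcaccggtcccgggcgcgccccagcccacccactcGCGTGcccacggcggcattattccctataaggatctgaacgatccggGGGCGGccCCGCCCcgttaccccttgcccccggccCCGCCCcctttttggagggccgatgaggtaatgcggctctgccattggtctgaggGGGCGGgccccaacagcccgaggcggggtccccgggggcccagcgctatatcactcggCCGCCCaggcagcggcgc
Each motif was searched on both strands in the 250 bases before the start. An AP-1 site (TGAGTCA or TGACTCA) was found before MMP7 and PLAUR, 2 of the 20, and in 4.2% of all 35116 promoters. A hypoxia-response core (ACGTG or GCGTG, or their complements CACGT and CACGC, which overlap where the letters CACGTG occur) was found in 11 of the 20 and in 43.2% of all promoters. A GC box was found in 9 of the 20 and in 42.6% of all, and TATAAA or its complement TTTATA in 7 of the 20 and 10.7% of all. The 6 members above background with a promoter, MMP14, PLAUR, TIMP1, TIMP3, RECK and SERPINE2, held a GC box in 5 and TATAAA in 0, and their promoters were 53.2% to 72.4% G and C. The 13 in the background range held a GC box in 4 and TATAAA in 6, at 32.8% to 77.6%. These are matches of letters, which say nothing of binding in these cells.

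The line was checked against markers. VIM, NES, CD44, SOX2 and S100B lay above background in all 8 samples, whereas OLIG2 and GFAP lay in the background range. EGFR was above background in 4 samples titled 23 Pa CSS and 1 titled no CSS, and its difference of 0.84 did not pass (limma adjusted p = 0.118, or 0.0372 when only rows above background were tested). Of the leukocyte markers 0 of 7 and of the endothelial markers 0 of 5 were above background, and of 5 epithelial markers the keratins KRT8 and KRT18 were.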

How the data were processed

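RNA was measured in 8 samples on expression arrays, and the authors deposited a log2 signal for each transcript cluster, made with Transcriptome Analysis Console per the submitters' processing notes. Summarisation, normalization and genome build are not given in the sources used here. Array signal carries no count, and the number of arrays limits the precision.

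After removal of 2995 control rows from 138745, limma 3.58.1 (R 4.3.3, functions lmFit then eBayes, two-sided, residual degrees of freedom 6, prior 5.28) was fitted to the remaining 135750 transcript clusters without a filter. P-values were adjusted by the Benjamini-Hochberg method over all of them, and "rose" or "fell" means an adjusted p under 0.05. The exact permutation test used all 70 assignments of the samples. Symbols came from the platform annotation. Detail was given for members above background or with an unadjusted p under 0.05, and for called genes of other lists, or else their 3 smallest p-values. Members, lists and rules were chosen with earlier results of these data known. The fit was tested on simulated data. Plots used matplotlib 3.10.9 (Python 3.11.15).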

Additional observations from a re-analysis of the deposited data

Results flagged for a closer look

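Dixon's ratio, the gap of an extreme sample to its nearest neighbour over the range of the 4 samples, was examined for 62 sets of 4 values, 31 genes in 2 groups, and exceeded its 95% critical value in 2. Chance flags about 1 in 20. MMP26 was 3.93 in titled 23 Pa CSS replicate 4 and between 3.33 and 3.41 in the other samples of its group. MMP15 was 7.25 in titled no CSS replicate 2 and between 6.72 and 6.80 in the other samples of its group. Both genes lay in the background range.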

How the results depend on the processing

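Transcript clusters past the threshold numbered 2727 (789 higher, 1938 lower), 2574 under quantile normalization (1126 higher, 1448 lower), 8581 centred on hybridisation controls (373 higher, 8208 lower), 3969 of the 14768 above background (1927 higher, 2042 lower), 1329 with a replicate block, and 411 to 5360 with 1 sample left out. The members that rose numbered 1, 0 centred on hybridisation controls, 2 among rows above background, 0 with the replicate block and 0 to 2 with 1 sample left out; those that fell numbered 0, 1 so centred, 1 among rows above background and 0 to 1 with 1 sample left out. Among rows above background fewer rows are adjusted over, and the limma prior is estimated from those rows alone. The part of each in the changed calls was not tested, nor was the cause for the other settings. The replicate numbers do not pair the samples: deviations of same-numbered samples correlated at −0.079 to −0.018, and not every sample correlated best with its own number. Under the block MMP14 had an adjusted p of 0.0597. Differences that changed sign were those of RECK (0.050 under quantile normalization, −0.152 to 0.0174 with 1 sample left out), TIMP1 (−0.128 to 0.0314 with 1 sample left out) and PLAT (−0.0207 centred on hybridisation controls). MMP14, PLAUR, MMP16, MMP2, TIMP3 and SERPINE2 kept their sign in all 14 alternatives. Array quality weights and a trended robust prior changed no call of a member. No member has several rows, so averaging rows changed none.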
